A study of Mus musculus with 2 samples.

Results

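Slc4a1, Epb42, Gypc, Rhag, Rhd, Kel, Xk, Ermap and Icam4 encode band 3, a glycophorin and blood group proteins of the red cell membrane. These 9 genes were taken by symbol from the 43346 gene entries measured, and all 9 were found. RNA came from G1E, an immortalised mouse cell line described in its labels as a Gata1- erythroid progenitor, male, of postnatal stage and 0 days of age. GATA1 is the DNA-binding factor that drives red cell maturation, and G1E cells, which were derived from mouse embryonic stem cells with a disrupted Gata1 gene, are held at an early erythroid stage. There were 2 libraries of polyadenylated RNA in 1 group, replicate 1 with 61982618 and replicate 2 with 80658620 estimated read pairs over annotated genes. No treatment and no cells with restored GATA1 were part of the data. Both libraries carry the same biosample entry in the labels, so the spread between them, given as SD with n = 2, may be technical.

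Band 3, the anion exchanger encoded by Slc4a1, is the most abundant protein of the mature red cell membrane and anchors it to the spectrin skeleton through ankyrin. Around it sit protein 4.2 (Epb42), the Rh proteins (Rhag and Rhd) and ICAM-4. A separate junction with actin holds glycophorin C (Gypc) and the Kell and XK proteins, which in humans are joined by a disulfide bond. Many of these proteins carry the blood group antigens of transfusion medicine in humans, and most accumulate late in red cell maturation.

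Marker genes were summed by list to look at the erythroid label, and the erythroid list stood highest. All 8 erythroid markers were detected, which here means 1 TPM or more in both libraries (TPM is transcripts per 1000000, a length-scaled share of the library), and their TPM summed to 8512 in replicate 1 and 9364 in replicate 2. Hba-a1 alone had 3881 and 4446 TPM, and Klf1 had 248 and 194. How particular each listed gene is to its cell type was not tested, so these sums do not by themselves separate the lineages. The 6 megakaryocyte markers summed to 31.7 and 40 TPM with 3 detected, the 6 mast cell markers to 3.37 and 3.48 with 1 detected, and the 6 myeloid markers to 2.34 and 3.09 with 1 detected. No member of the lymphocyte list of 6 or of the fibroblast and endothelial list of 5 was detected, and 4 of each had 0 counts in both libraries. Gata1, the gene named in the genotype label, had 48.0 TPM in replicate 1 and 46.6 in replicate 2, from 4694 and 5771 counts. The sources used here do not say which stretch of Gata1 was disrupted, so a level over the whole gene does not check the label. Gata2, which encodes a related factor and is on the erythroid list, had 1086 and 941 TPM. In bulk RNA a lower level can come from fewer cells expressing a gene or from less RNA per cell, which cannot be told apart here.

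GATA factors bind the letters GATA, and the sequences before the starts of the genes are shown first because the line is named for its disrupted Gata1. RefSeq promoters (build GRCm38.p6, 250 bases before to 50 after the start) were matched by symbol for 7 of the 9 genes, all but Slc4a1 and Gypc. The motifs searched on both strands were AGATAA and TGATAA, which read TTATCT and TTATCA on the other strand, and they were chosen after the sequences had been seen. The stretches below run 5′ to 3′ on the strand of the gene, with each match in capitals, and stop at or before the base preceding the RefSeq start.
Ermap, chr4:119189996-119190085, minus strand: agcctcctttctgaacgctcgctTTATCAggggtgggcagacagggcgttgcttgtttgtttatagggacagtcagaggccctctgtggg
Xk, chrX:9272694-9272783, plus strand: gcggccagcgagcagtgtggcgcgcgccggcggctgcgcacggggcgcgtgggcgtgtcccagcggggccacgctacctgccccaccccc
Rhag, chr17:40811059-40811148, plus strand: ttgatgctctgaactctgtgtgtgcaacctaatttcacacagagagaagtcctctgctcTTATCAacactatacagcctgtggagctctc
Icam4, chr9:21029372-21029401, plus strand: gtggccagggtgccttcTTATCTcctgcgg
Rhd, chr4:134864446-134864535, plus strand: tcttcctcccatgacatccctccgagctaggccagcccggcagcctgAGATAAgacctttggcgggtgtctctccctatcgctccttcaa
Kel, chr6:41704326-41704415, minus strand: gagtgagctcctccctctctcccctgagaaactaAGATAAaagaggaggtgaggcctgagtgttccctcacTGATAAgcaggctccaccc
Epb42, chr2:121037058-121037127, minus strand: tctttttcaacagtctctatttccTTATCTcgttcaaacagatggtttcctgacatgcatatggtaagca

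A GATA match lay in 6 of these 7 promoters, against 18.6% of all 32851 promoters of the same length. The exception was Xk, whose 300 bases are 78.0% G and C, while those of the other 6 range from 40.7% for Rhag to 54.3% for Icam4. Within the last 90 bases before the RefSeq start a match lay in 5 of 7, against 5.47% of all promoters. Kel held a match at 56 and another at 19 bases before the start, Rhd and Icam4 each had a match at 43, Rhag at 31 and Ermap at 67. For Epb42 the match is 226 bases before the RefSeq start but 31 before the start of its longest transcript in GENCODE M21, and for Icam4 it falls at base 17 after the GENCODE start. CACCC, or GGGTG on the other strand, the core of the CACC box that KLF factors bind, was also chosen after the sequences had been seen and lay in 6 of the 7 promoters, against 57.5% of all, and was absent from that of Epb42. For comparison, 3 of the 18 promoters listed for the partner genes of the red cell membrane held a GATA match, as did 5 of the 35 listed for other blood group genes. Within the last 90 bases a GATA match lay in 2 of those 18 and 0 of those 35. CACCC lay in 12 of those 18 partner promoters (66.7%) and in 28 of those 35 blood group promoters. A gene can have several listed promoters. These are letters in a window, not measured binding. Because the motifs were chosen after these sequences had been seen, their shares in the 7 promoters describe them and are no test against other promoters.

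**Figure D1:**
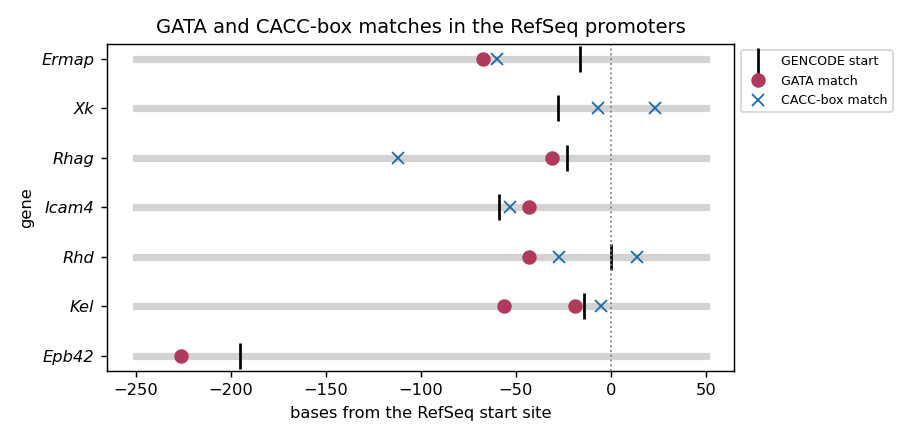
Positions of GATA matches (filled circles, AGATAA or TGATAA on either strand) and CACC-box matches (crosses) in the 7 RefSeq promoters, with the x axis in bases from the RefSeq start and genes ordered from the highest level at the top. Vertical bars mark the GENCODE start of the longest transcript, which lies up to 195 bases upstream of the RefSeq start (Epb42); Xk has no GATA match.

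The 9 genes spanned a range from 53.6 TPM to 1.02 TPM, and 8 of the 9 were detected. Across all entries 9150 genes, or 21.1%, passed that threshold, and of 21474 protein-coding genes 8581 did. The median over the 8 detected genes was 7.70 (replicate 1) and 11.3 TPM (replicate 2), against 16.0 and 17.9 over all genes detected in both libraries. All 9 had whole gene-level counts with a posterior SD of 0 in both libraries, so these counts carry no uncertainty from reads shared with other genes in the authors' model. Coordinates below are those of GENCODE M21 on mm10.

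Ermap, Gypc and Xk formed the upper level. Ermap (ENSMUSG00000028644.12, chr4:119175457-119190011, minus strand) encodes the erythroblast membrane-associated protein of the butyrophilin-like family, which carries the Scianna antigens in humans, and had 45.3 TPM in replicate 1 and 61.9 in replicate 2, from 4947 and 10755 counts. Gypc (ENSMUSG00000090523.2, chr18:32528322-32560034, minus strand) encodes glycophorin C, which ties the membrane to the skeleton, and had 48.4 and 41.4 TPM from 5492 and 5940 counts. Replicate 2 was higher for Ermap and lower for Gypc, and the ranges of the 2 genes overlap. Xk (ENSMUSG00000015342.6, chrX:9272756-9313250, plus strand) encodes the membrane protein bound to Kell, of a family that holds phospholipid scramblases. It had 23.9 and 26.8 TPM from 6575 and 9352 counts, below Gypc in each library. Their means lay at percentiles 74.5 (Ermap), 71.0 (Gypc) and 58.9 (Xk) of the genes detected in both libraries.

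Rhag and Icam4 came next. Rhag (ENSMUSG00000023926.7, chr17:40811126-40840754, plus strand) encodes the Rh-associated glycoprotein, a channel of the ammonium transporter family that is required for Rh proteins to reach the surface, and had 9.34 TPM in replicate 1 and 12.8 in replicate 2. Icam4 (ENSMUSG00000001014.5, chr9:21029373-21030595, plus strand) encodes an adhesion receptor for integrins that carries the LW antigen in humans, and had 6.05 and 9.78 TPM, from 258 and 525 counts. Replicate 2 was higher for both genes and their ranges overlap, although Rhag exceeded Icam4 within each library by 1.54-fold and 1.31-fold.

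The lowest levels were those of Rhd, Slc4a1, Kel and Epb42. Rhd (ENSMUSG00000028825.7, chr4:134864536-134896172, plus strand), the mouse Rh protein gene, had 2.89 TPM in replicate 1 and 3.31 in replicate 2, from 221 and 320 counts. Slc4a1 (ENSMUSG00000006574.11, chr11:102348824-102366203, minus strand) had 2.30 and 2.90 TPM from 535 and 902 counts, and the ranges of Rhd and Slc4a1 overlap. Kel (ENSMUSG00000029866.9, chr6:41686330-41704339, minus strand), which encodes an endopeptidase of the neprilysin family, had 1.07 and 1.63 TPM from 142 and 264 counts. Epb42 (ENSMUSG00000023216.9, chr2:121017891-121037072, minus strand), which encodes a transglutaminase-like protein without enzyme activity, had 0.970 and 1.07 TPM from 104 and 155 counts, the only gene of the 9 under 1 TPM in a library. Kel and Epb42 overlap in range, and their means stood at percentiles 1.83 and 0.0219 of detected genes. Between neighbours in the order of mean TPM, the pairs without overlap were Gypc over Xk, Xk over Rhag, Icam4 over Rhd and Slc4a1 over Kel.

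**Figure D2:**
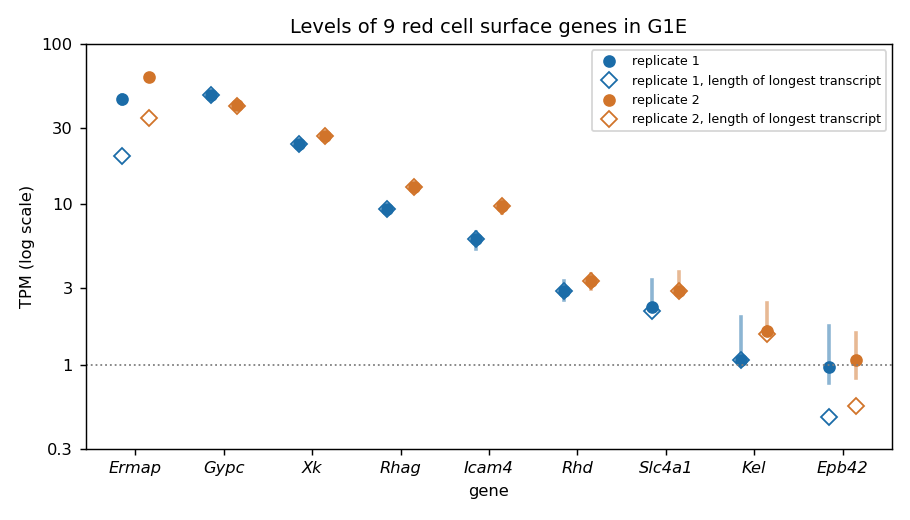
TPM (log axis) of each gene in replicate 1 (left of each pair) and replicate 2, as filled circles with the authors' deposited interval as a bar, whose level is not stated in the sources used here. Open diamonds give all counts over the length of the longest transcript; they match the circles except for Ermap, which moves down to 20.1 and 34.5, Epb42, which moves below 1, and small shifts for Slc4a1 and Kel.

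Proteins that work together differed in RNA level. Rhag stood above Rhd by 3.23-fold and 3.86-fold (replicates 1 and 2), with a mean log2 ratio of 1.82 ± 0.18 (SD, n = 2). Xk exceeded its disulfide partner Kel 22.3-fold and 16.5-fold, a log2 ratio of 4.26 ± 0.31. Slc4a1 exceeded Epb42, whose product binds band 3, 2.37-fold and 2.71-fold, a log2 ratio of 1.34 ± 0.14. With the counts of each gene set over the length of its longest transcript, Slc4a1 exceeded Epb42 4.63-fold and 5.23-fold, a log2 ratio of 2.30 ± 0.12. Each of these differences had the same direction in both libraries and was several times its SD; with 2 libraries no test over samples was made.

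The levels of Ermap and Epb42 depended on how their transcripts were divided. Of its 9 annotated transcripts, ENSMUST00000138395.3, the full-length coding form of 4551 bases and 13 exons, took 25.7% of the gene's TPM in replicate 1 and 35.9% in replicate 2. A model of 724 bases whose 3′ end is marked as incomplete in GENCODE M21, ENSMUST00000124626.3, took 51.1% and 33.1%. In replicate 1 the order turned round by counts, since TPM divides by length. In replicate 2 the full-length form led on both measures. The full-length form held 58.0% and 64.3% of the gene's counts (2871 and 6921), and the 724-base model 15.2% and 7.76% (750 and 834).

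Sequences are shown around Ermap splice sites at which annotated models differ by a few bases. These are not the only differences, since the 724-base model has 5 exons against 13 in the full-length form. The sequences are from GENCODE M21 transcripts (chromosome 4, minus strand, mm10), and the capitals mark bases in the first model of each pair that the second lacks. The first pair is the start of exon 5, where the 6 capital bases lie at 119185817 to 119185822, and the second is the end of exon 7, where the 4 capital bases lie at 119183306 to 119183309.
Full-length ENSMUST00000138395, exon 4 to exon 5: tgcaggtggcagTTTTAGgttctgatccct
Short ENSMUST00000124626, exon 4 to exon 5: tgcaggtggcaggttctgatccct
Full-length ENSMUST00000138395, exon 7 to exon 8: caagcgatggagGTAGaaaatcttctgg
ENSMUST00000030396, exon 7 to exon 8: caagcgatggagaaaatcttctgg

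A length of 6 bases is a multiple of 3 and one of 4 is not, but any effect on the reading frame or on decay was not tested. The full-length form has 4551 bases and ENSMUST00000030396.9 has 4378, so they differ by more than the 4 bases shown. ENSMUST00000030396.9, the form of 4378 bases that lacks the 4 bases and is annotated as a target of nonsense-mediated decay, held 1011 counts in replicate 1 and 2296 in replicate 2, or 20.4% and 21.3% of the gene. The 3 Ermap transcripts of that class together held 21.9% of counts in replicate 1 and 23.1% in replicate 2, and 14.1% and 19.7% of the gene's TPM. The posterior SD of the full-length form was 123 and 251 counts, and of the decay-annotated form 122 and 249 counts, so the division between these models is uncertain to that extent. With all counts of the gene set over the effective length of the full-length form, an alternative chosen after seeing the data, Ermap stood at 20.1 and 34.5 TPM. Gypc on the same basis was at 48.3 and 41.3 TPM, above Ermap in both libraries.

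Epb42 showed the same contrast at low depth. A retained-intron model of 625 bases took 44.6% ± 6.50 of its TPM (SD, n = 2) from 10.4 and 17.7 counts, while the 4115-base coding form held 67.1% and 72.7% of its counts (69.8 and 113). Over the length of that form Epb42 was at 0.471 and 0.555 TPM. For the other genes the leading transcript was the annotated full-length coding form. Its share of TPM was 94.3% and 100% for Slc4a1, 100% and 95.3% for Kel, 96.1% and 97.0% for Gypc and 100% in both libraries for Rhd, and Rhag, Xk and Icam4 have 1 listed transcript each. The Slc4a1 and Kel departures from 100% rested on 2.55 counts in replicate 1 and 1.48 in replicate 2.

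**Figure D3:**
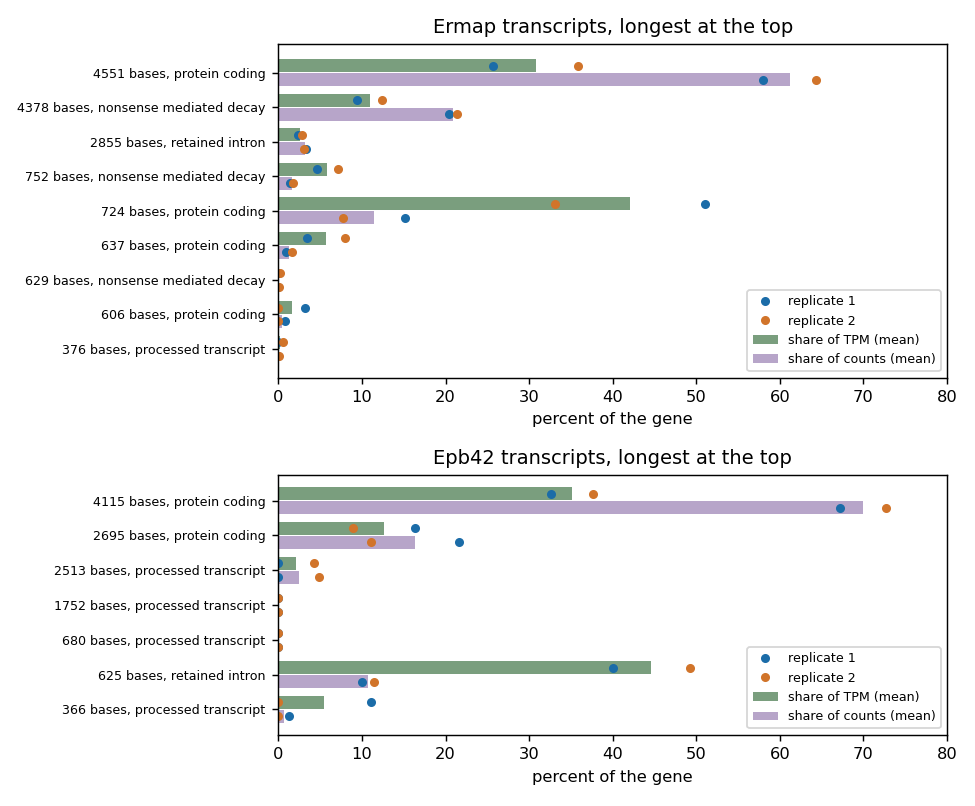
Share of each Ermap and Epb42 transcript in its gene, in percent of TPM (green bars) and of expected counts (purple bars), as means over 2 libraries with points for replicate 1 and replicate 2. In the means, short models of 724 bases (Ermap) and 625 bases (Epb42) lead in TPM, and the longest coding forms of 4551 and 4115 bases lead in counts. For Ermap in replicate 2 the longest form leads in TPM too.

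Family relatives were compared to see which member of each protein family was the more abundant. For band 3, protein 4.2 and Kell a relative stood above the red cell gene. Slc4a1 had 2.30 and 2.90 TPM, against 17.4 and 20.2 for Slc4a2, the anion exchanger of most tissues, a log2 ratio of -2.86 ± 0.09 (SD, n = 2). Epb42 had 0.970 and 1.07 TPM, against 29.3 and 37.4 for Tgm2, the widespread tissue transglutaminase, a log2 ratio of -5.02 ± 0.15. Kel had 1.07 and 1.63 TPM, against 5.98 and 8.87 for Ece2, an endothelin-converting enzyme, a log2 ratio of -2.46 ± 0.03. With the deposited posterior mean TPM these log2 ratios were -2.74 for Slc4a1, -4.76 for Epb42 and -2.08 for Kel, each farther from the printed mean than its SD. In counts, which are not divided by length, Kel had 142 and 264 against 332 and 620 for Ece2. That gap was smaller than in TPM, as was that of Slc4a1 (535 and 902) to Slc4a2 (2899 and 4327). The gap of Epb42 (104 and 155) to Tgm2 (5643 and 9110) was larger in counts.

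For Xk, Ermap and Icam4 the red cell gene stood above its relatives in TPM. Xk exceeded Xkr6, its highest relative at 7.76 and 6.45 TPM, 3.08-fold and 4.16-fold. Ermap exceeded the butyrophilin Btn1a1, at 0.740 and 0.810 TPM, 61.2-fold and 76.4-fold. Over the length of its longest transcript Ermap was at 20.1 and 34.5 TPM, which would lower these folds. Btn1a1 was not recalculated on that basis. Icam4 exceeded the neighbouring adhesion gene Icam1, at 4.83 and 5.90 TPM, by 1.25-fold and 1.66-fold. In counts the order was reversed, with 258 and 525 for Icam4 against 647 and 998 for Icam1. The order of Icam4 and Icam1 therefore depends on the division by length. Rhbg and Rhcg, the ammonium transporters of kidney and other epithelia, had 0 counts in both libraries, which allows up to 0.0484 CPM (the count per 1000000 of the library) in replicate 1 and 0.0372 in replicate 2, whereas Rhag had 18.5 and 24.5 CPM. In all, 8 of the 29 listed relatives were detected and 12 had 0 counts in both libraries.

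**Figure D4:**
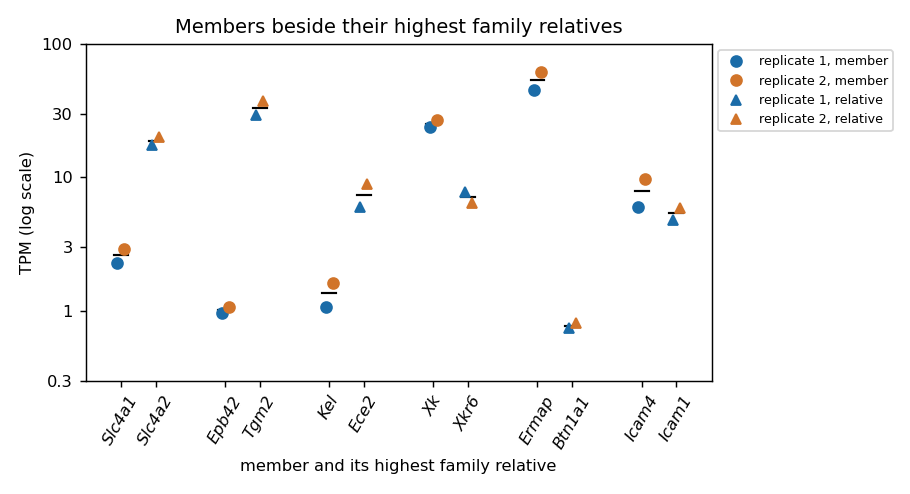
TPM (log axis) of each red cell gene (circles) and of its highest family relative (triangles) in replicate 1 and replicate 2, with a line at the mean. Slc4a1, Epb42 and Kel lie below their relatives and Xk, Ermap and Icam4 above; Rhag and Rhd are not drawn because their relatives had 0 counts, nor is Gypc, which has no listed relative.

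Partner genes of the red cell membrane were mostly detected, 15 of 17. Medians over all 17 were 50.1 TPM in replicate 1 and 64.0 in replicate 2, and over the 15 detected 68.2 and 93.2. The highest were Actb (2460 ± 899 TPM), Tpm3 (271 ± 14.5), Add1 (257 ± 5.81) and Sptb (163 ± 10.8), all parts of the spectrin and actin skeleton. Those undetected were Tmod1, which caps actin, at 0.640 and 0.630 TPM and Dmtn, which bundles it, at 0.05 and 0.07. Ank1, the ankyrin that holds band 3, was at 50.1 and 64.0 TPM. Cd47, a partner of the Rh complex, was at 21.9 and 25.2 TPM and Mpp1, a partner of glycophorin C, at 2.82 and 3.55.

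Of 25 further genes whose human counterparts define blood groups, 15 were detected. Medians were 1.52 and 1.98 TPM over the list, and 5.32 and 9.32 over the 15 detected. Bsg (basigin, Ok) was at 1000 ± 169 TPM, Slc29a1 (a nucleoside transporter, Augustine) at 173 ± 45.1, Smim1 (Vel) at 72.9 ± 21.8 and Abcg2 (Junior) at 19.4 ± 10.5. The 10 undetected genes were Bcam, Fut1, Abo, Ackr1, B3galnt1 and A4galt, each with 0 counts in both libraries, and Gcnt2, Aqp1, Sema7a and Slc14a1, with 1 to 13 counts over both. Fut1, Abo, Gcnt2, B3galnt1 and A4galt encode glycosyltransferases that make carbohydrate antigens, and Ackr1, Aqp1 and Slc14a1 carry the Duffy, Colton and Kidd antigens.

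The last comparison asked how closely the 2 libraries agreed on these genes, with ratios given as replicate 1 over replicate 2. None of the 9 genes was called different by the exact conditional binomial test (Benjamini-Hochberg adjusted p under 0.05 over all genes tested and at least 2-fold), against 671 of 11636 tested genes, or 5.77%. Of all genes tested 1.85% were called higher in replicate 1 and 3.92% higher in replicate 2, and of the lists 0 of 17 partner genes and 0 of 15 tested blood group genes were called. With edgeR's negative binomial exact test, 0 of 9 were called, against 0.980% of genes tested, and 0 of 9 had an unadjusted p under 0.05, against 5.10%. Without a fold requirement the exact test called 6 of 9, against 64.8% of all genes tested, and the same 6 had an unadjusted p under 0.05, against 67.1%. That test knows counting error only and compares these libraries, not conditions.

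The ratios of TMM-scaled counts ran from 0.650 for Ermap (95% exact interval 0.628 to 0.672, counting error only) to 1.31 for Gypc (1.26 to 1.36). The adjusted p of the exact conditional test was 8.08e-144 for Ermap and 3.96e-45 for Gypc. The ratio was 0.695 for Icam4, 0.760 for Kel, 0.818 for Rhag and 0.838 for Slc4a1, also called without the fold requirement. Those of Epb42 (0.948), Rhd (0.976) and Xk (0.994) were not called, and the sign for Xk turned to a log2 ratio of 0.0025 with DESeq2 size factors. Of the 6, Gypc alone was higher in replicate 1, against 32.4% of all genes tested, and 5 were higher in replicate 2, also against 32.4%. The median log2 ratio over the 9 genes was -0.25, and over all tested genes -0.01.

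In TPM the ratios were lower for every gene but Ermap, whose effective length, a mean over transcripts weighted by abundance, was 1955 bases in replicate 1 and 2457 in replicate 2. Ratios of TPM had a median log2 value of -0.15 over 11591 genes, against -0.01 for scaled counts, so TPM places most genes lower in replicate 1, and for the 9 genes the median was -0.33. The deposited intervals of TPM did not overlap between the libraries for 5 of the 9 genes, Gypc, Rhag, Xk, Ermap and Icam4, against 53.8% of all genes tested. For Kel the lower bound of replicate 1, 1.09, lies above its TPM of 1.07, since the intervals belong to the posterior mean and not to the TPM.

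**Figure D5:**
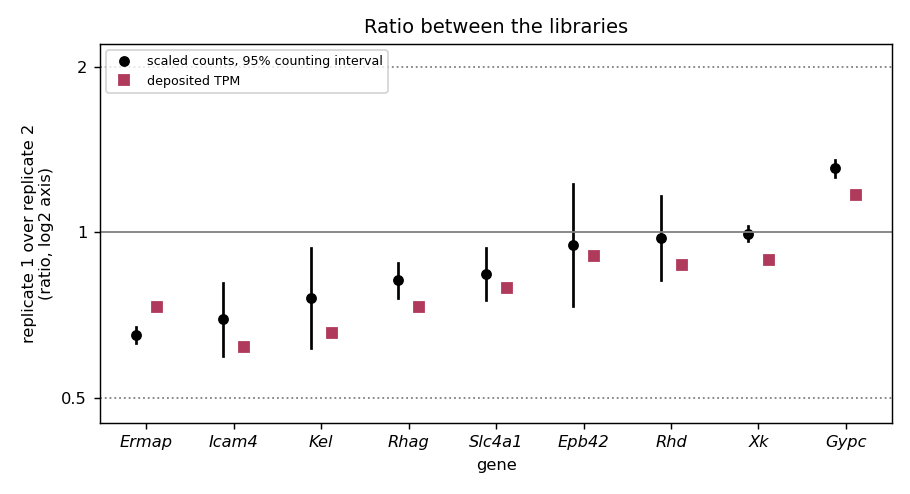
Ratio of replicate 1 over replicate 2 (log2 axis) for each gene, from TMM-scaled counts (black circles with 95% counting intervals) and from deposited TPM (squares), with dotted lines at 2-fold. All 9 lie inside the 2-fold lines; By counts Ermap is lowest at 0.650, by TPM Icam4 is lowest at 0.619, and Gypc is highest on both at 1.31 and 1.17.

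Kel shares its strand and span with Gm37527, which had 6 and 19 counts, and Xk with H2al1m, which had 0 and 1.34 counts. In GENCODE M21 an antisense gene, Gm47079, spans Icam4, and it was not analysed here. Whether the counting used strand is not given in the sources used here, so reads from that antisense gene cannot be told apart from those of Icam4.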

How the data were processed

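Poly(A) RNA of G1E was measured in 2 paired-end libraries. Per the deposited descriptions, the authors quantified each library alone from a transcriptome alignment on mm10 with gene annotation M4; no source used here names the aligner or the counter. The deposited expected counts are model estimates of read pairs per gene or transcript and need not be whole. The deposited TPM and FPKM are abundances scaled by effective length and library, per the file headers, and the authors' isoform percent is the share of a gene's TPM. Symbols came from GENCODE M21 identifiers for 98.0% of the 43346 entries; entries with no mouse Ensembl identifier were left out.

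Rounded expected counts of the libraries were compared by a two-sided exact conditional binomial test with TMM-scaled totals (edgeR 4.0.16, factors 0.960 and 1.04), over genes with 10 or more counts in a library. That test compares these libraries, not conditions. On counts simulated with counting error only, without further variation between libraries, it recovered 94.0% of 200 genes changed 2.5-fold among 11572 tested. The alternatives were DESeq2 1.42.0 size factors, total counts, other count minimums, posterior mean counts and TPM, and edgeR's negative binomial exact test with the coefficient of variation (0.224) estimated from the same libraries. A 0 allows up to 3 counts, and intervals cover counting error only. Named genes are the 9 genes, the highest relative of each (and the relatives of Rhag, all at 0), and the 4 highest and all undetected genes of the partner and blood group lists; Ank1, Cd47, Mpp1, Gata1 and Gata2 were named beyond that, after their values were seen. The genes and lists were chosen with earlier results of these data known. Python 3.11.15, SciPy 1.17.1 and R 4.3.3 were used.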

Additional observations from a re-analysis of the deposited data

How the results depend on the processing

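No paired analysis was possible because the 2 libraries form 1 group. The count of genes called different between the libraries stayed at 0 of 9 under DESeq2 size factors, total counts, no count filter, a minimum of 50 counts, posterior mean counts and edgeR's negative binomial test, and was 6 with no fold requirement. The largest log2 ratio under these scalings was -0.74 (Ermap, total counts), short of 2-fold. The choice of scaling or count minimum therefore could not change that count. The coefficient of variation in edgeR's test came from the same libraries, so their difference entered its error. The calls over all genes numbered 671 and fell to 421 with a minimum of 50 counts, where fewer genes were tested, and to 114 with edgeR; with total counts alone they were 800, and that scaling lowers every log2 ratio by 0.12. The number of the 9 genes detected was 8 and became 5 at a threshold of 5 TPM; leaving out a library gave 8 to 9, and posterior mean TPM and a threshold of 0.5 TPM gave 9. The median over the 9 genes was 7.92 TPM, between 6.05 and 9.78 on leaving out a library. The log2 ratio of Ermap to Gypc, 0.24 in the mean, was -0.10 without replicate 2, 0.58 without replicate 1 and -0.76 on the length of the longest transcript, the alternative chosen after seeing the data. Posterior means raised Epb42 to 1.21 TPM and lowered the leading transcript of Slc4a1 to 82.4% and of Kel to 72.8%, and moved 3 of the 6 log2 ratios to a relative beyond their SD (Slc4a1, Epb42 and Kel); the cause was not tested. Depth limits Kel, Epb42, Rhd and Icam4, with 104 to 525 counts each.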
